A study of Mus musculus with 6 samples.

Results

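The levels of 7 long noncoding RNAs of interscapular brown fat, the heat-producing depot between the shoulder blades, were described across the libraries of a study of Olfm4 deletion in mice. Malat1 and Neat1 are nuclear RNAs, Meg3, Rian, H19 and Kcnq1ot1 are imprinted RNAs, transcribed mainly or only on the copy inherited from 1 parent, and Snhg11 is a host gene of small nucleolar RNAs. They were taken by name from the gene column of the count table, 7 of 35975 genes with counts, and the names were chosen by their normalised levels and Olfm4CKO to Ctrl differences in these same libraries. Their levels and differences are therefore a description, and no statistic over the list supports a claim about it. They were grouped under the word abundant. It held for Malat1 and Neat1, which ranked 513 and 540 by mean level among the 13573 genes tested. It did not hold for the others: H19 ranked 6975, Meg3 7894, Rian 8107, Snhg11 9916 and Kcnq1ot1 10879.

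The mice labelled Olfm4CKO carried floxed Olfm4 alleles and Cre recombinase driven by Ucp1, a gene of brown adipocytes, so the deletion is aimed at those cells and not at the other cells of the depot. The other group, labelled Ctrl, was of the same C57BL/6 strain, and the labels do not say whether it carried Cre or floxed alleles, so Cre and the loss of Olfm4 cannot be told apart. The genotype above is that of the genotype label. Sample titles of both groups, Olfm4CKO included, carry the tag Olfm4 WT, so titles and that label conflict. The groups were taken from the description and genotype labels. Neither age nor any treatment is given for either group. Of the 3 libraries in each group, replicate 3 could not be used, because its counts do not follow the gene names beside them, and every value below is from 2 Olfm4CKO and 2 Ctrl libraries. Whether these came from different animals is not stated, so a p-value reflects only how far these libraries vary. In Olfm4CKO that spread may be technical. The Ctrl libraries differ in sex-linked genes, given below, so their spread is not technical alone.

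Total counts were 15547569 and 15346705 in Olfm4CKO replicates 1 and 2, against 15953676 and 17309325 in Ctrl replicates 1 and 2. Olfm4 itself had 0 counts in all 4, so it does not check the labels. All 10 brown adipocyte markers examined were detected, with summed levels of 10401 and 5564 CPM (counts per 1e6, scaled for composition) in Olfm4CKO and 10129 and 15190 CPM in Ctrl. The libraries stood apart in other ways. The 4 Y-linked genes (Ddx3y, Eif2s3y, Kdm5d and Uty) had between 275 and 1300 counts in Ctrl replicate 1 and 0 in the other 3 libraries. Xist, the noncoding RNA that coats the inactive X chromosome in females, had 3334 and 3259 counts in Olfm4CKO, against 0 and 835 in Ctrl replicates 1 and 2. The Ctrl libraries thus differed in these sex-linked genes, while both Olfm4CKO libraries had Xist counts and 0 Y-linked counts. Group and sex can therefore not be fully told apart. Results are also given without Ctrl replicate 1.

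Several of these long noncoding RNAs act in the nucleus, where they are made. Malat1 gathers in nuclear speckles, the stores of splicing factors, and its main form ends in a triple helix cut by RNase P in place of a poly(A) tail. Neat1 is the scaffold of paraspeckles, and exists as a short polyadenylated form and a long form without a tail. Imprinted RNAs are read from clusters of genes under shared control regions, and Kcnq1ot1 silences its protein-coding neighbours on the paternal copy. The kit used here is one for messenger RNA, so levels of RNAs without a poly(A) tail are those of the molecules it captured.

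Malat1 and Neat1 carried most of the signal. Malat1 had 537 and 212 CPM in Olfm4CKO replicates 1 and 2, against 207 and 46.4 CPM in Ctrl replicates 1 and 2. Its mean was 375 ± 230 CPM in Olfm4CKO and 127 ± 114 CPM in Ctrl (SD, n = 2 each). The groups did not overlap, but Olfm4CKO replicate 2 stood only just above Ctrl replicate 1, and the highest and lowest libraries stood apart from both. Within a group, Malat1 differed 2.54-fold between the Olfm4CKO libraries (exact 95% counting interval 2.44 to 2.64) and 4.46-fold between the Ctrl libraries (4.13 to 4.83), against 2.95-fold between the group means. The log2 difference was 1.56 ± 0.64 (SE) with a 95% interval of 0.16 to 2.97, and it did not pass edgeR's quasi-likelihood test (Benjamini-Hochberg adjusted p = 0.9998).

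Neat1 had 310 and 273 CPM in Olfm4CKO replicates 1 and 2, against 230 and 152 CPM in Ctrl replicates 1 and 2. Its mean was 291 ± 26.3 CPM in Olfm4CKO and 191 ± 54.9 CPM in Ctrl (SD, n = 2 each). Both Olfm4CKO libraries were higher than both Ctrl libraries, and the group means differed 1.53-fold. The log2 difference was 0.61 ± 0.36 (SE), with an interval of -0.19 to 1.41. Neat1 lies 22036 bases from Malat1 on the same strand of chromosome 19, yet the ratio of the 2 RNAs was not fixed. Malat1 stood at 1.73 and 0.777 times the CPM of Neat1 in Olfm4CKO, against 0.902 and 0.306 times in Ctrl. Together they made up 93.0% and 90.0% of the summed CPM of the 7 RNAs in Olfm4CKO, and 92.6% and 86.7% in Ctrl.

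A tested gene beside Neat1 had nearly level values. Frmd8, a partner of the rhomboid-like iRhom proteins, had 26.02 and 27.7 CPM in Olfm4CKO and 24.2 and 26.2 CPM in Ctrl, a log2 difference of 0.09 ± 0.32 (SE).

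Meg3 and Rian are maternally expressed RNAs of the Dlk1-Dio3 cluster on chromosome 12. Meg3 had 20.1 and 13.6 CPM in Olfm4CKO replicates 1 and 2, against 7.64 and 5.22 CPM in Ctrl replicates 1 and 2. The groups stood clear of each other, with means of 16.8 ± 4.58 CPM in Olfm4CKO and 6.43 ± 1.71 CPM in Ctrl (SD, n = 2 each). Its log2 difference of 1.39 ± 0.41 (SE) had an interval of 0.49 to 2.29. Rian, a host of small nucleolar RNAs and microRNAs, had 14.7 and 11.7 CPM in Olfm4CKO, against 10.3 and 6.40 CPM in Ctrl. Its means were 13.2 ± 2.09 CPM in Olfm4CKO and 8.34 ± 2.73 CPM in Ctrl (SD, n = 2 each), and the log2 difference was 0.66 ± 0.41 (SE). Meg3 stood at 1.37 and 1.16 times the CPM of Rian in Olfm4CKO, against 0.744 and 0.815 times in Ctrl, so Meg3 was the higher of the pair by CPM in both Olfm4CKO libraries and the lower in both Ctrl libraries. In replicate 2 this order rested on 214 counts of Meg3 against 184 of Rian in Olfm4CKO, and 88 against 108 in Ctrl. Neither the ratio nor its counting error was tested.

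Of the other genes of the Dlk1-Dio3 cluster, Mirg and Dio3 were low, and Dlk1 was near the level of Meg3 in Ctrl. Dlk1, a paternally expressed gene for a membrane protein that restrains adipocyte differentiation, had 6.26 and 7.70 CPM in Olfm4CKO and 5.13 and 6.17 CPM in Ctrl, a log2 difference of 0.30 ± 0.44 (SE). Mirg, a further maternal microRNA host, had 22 and 4 counts in Olfm4CKO and 7 and 12 counts in Ctrl. Dio3, which encodes the deiodinase that inactivates thyroid hormone, had 5 and 0 counts in Olfm4CKO and 0 and 1 in Ctrl. Counts this low set no direction for Mirg or Dio3.

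H19, the maternally expressed partner of the growth factor gene Igf2 on chromosome 7, is high in embryos and low in most adult tissues. It had 17.2 and 16.6 CPM in Olfm4CKO replicates 1 and 2, against 11.0 and 17.7 CPM in Ctrl replicates 1 and 2. Ctrl replicate 2 was the highest of the 4, so the groups overlapped. The log2 difference was 0.24 ± 0.37 (SE), and it was -0.069 without Ctrl replicate 1. Igf2 had 19.1 and 27.7 CPM in Olfm4CKO and 20.6 and 23.4 CPM in Ctrl, a difference of 0.09 ± 0.35 (SE).

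Kcnq1ot1, the paternally expressed antisense RNA within Kcnq1, was the lowest of the 7, with 78 and 61 counts in Olfm4CKO and 36 and 6 counts in Ctrl. These were 5.04 and 3.88 CPM in Olfm4CKO replicates 1 and 2, against 2.25 and 0.356 CPM in Ctrl replicates 1 and 2. Ctrl replicate 2 was far below the rest: the Ctrl libraries differed 6.34-fold, with a wide counting interval of 2.64 to 18.4. The log2 difference was 1.77 ± 0.75 (SE), with an interval of 0.11 to 3.43. Kcnq1, which encodes a potassium channel and is read from the opposite strand, had 2.52 and 2.29 CPM in Olfm4CKO and 1.38 and 2.02 CPM in Ctrl (log2 difference 0.50 ± 0.60, SE). Only 121 bases of Kcnq1 exons lie inside Kcnq1ot1 in the annotation, but with the strand setting of the counting unknown, reads of an antisense pair cannot be told apart. Cdkn1c, a cell cycle inhibitor and a target of this silencing, had 84.2 and 34.5 CPM in Olfm4CKO and 56.7 and 71.1 CPM in Ctrl. Its libraries overlapped, with a log2 difference of -0.11.

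Snhg11, on chromosome 2, is best known from neurons. It had 109 and 126 counts in Olfm4CKO and 60 and 11 counts in Ctrl, or 7.04 and 8.01 CPM in Olfm4CKO replicates 1 and 2, against 3.76 and 0.652 CPM in Ctrl replicates 1 and 2. The Olfm4CKO libraries did not differ beyond counting error (ratio of replicate 1 to 2 0.878, interval 0.673 to 1.14), and the Ctrl libraries by 5.76-fold (3.001 to 12.2). The log2 difference was 1.77 ± 0.69 (SE), with an interval of 0.26 to 3.29. Neuronal markers were too low to be compared with it: 4 of 10 (Snap25, Syt1, Th and Nefl) were at 0 in all 4 libraries. Only 2 were tested, Map2 (log2 difference 0.33 ± 0.61, SE) and Stmn2 (-0.47 ± 0.52, SE). The summed level of the list was 5.10 and 6.04 CPM in Olfm4CKO and 6.07 and 5.93 CPM in Ctrl. The nearest tested gene on the lower side, Snhg17, a further small nucleolar RNA host on the opposite strand, had 4.46 and 2.23 CPM in Olfm4CKO, against 1.75 and 1.54 CPM in Ctrl. Its groups did not overlap either, and its log2 difference was 1.02 ± 0.61 (SE). On the upper side, Ralgapb, which encodes a subunit of a Ral GTPase activator, had 51.4 and 80.3 CPM in Olfm4CKO and 67.5 and 40.7 CPM in Ctrl, with overlap.

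**Figure D1:**
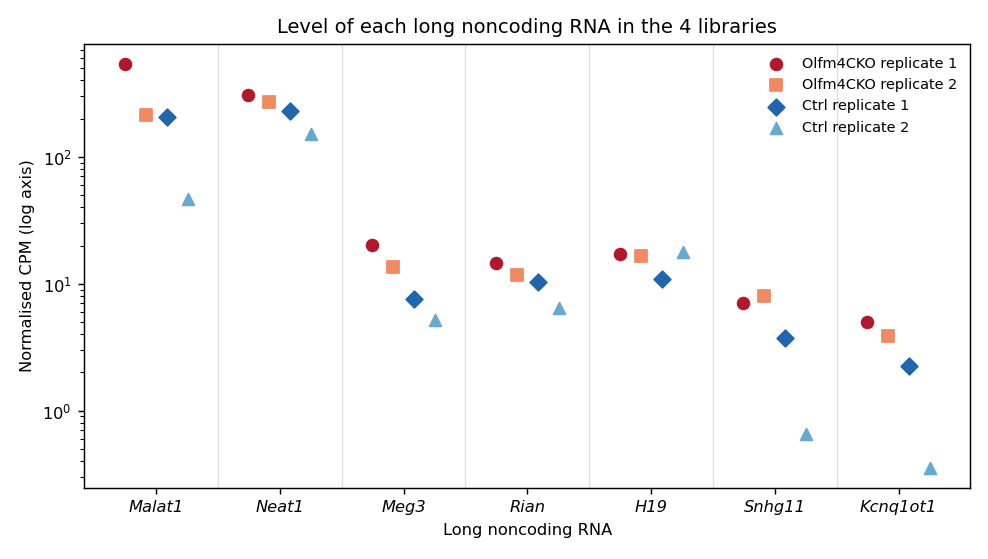
Normalised CPM of each of the 7 RNAs in each library on a log axis, with Olfm4CKO left of Ctrl; each point is 1 library. Both Olfm4CKO points lie above both Ctrl points for every RNA except H19, and Ctrl replicate 2 is far below the rest for Malat1, Snhg11 and Kcnq1ot1.

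The plot of levels by library shows that 6 of the 7 RNAs had both Olfm4CKO libraries above both Ctrl libraries, a pattern found in 11.8% of all genes tested. The library order was shared as well. In 5 of 7, the order from high to low was Olfm4CKO replicate 1, Olfm4CKO replicate 2, Ctrl replicate 1 and Ctrl replicate 2, which 4.26% of all genes followed. Olfm4CKO replicate 1 was the highest library for 5 of 7 RNAs, against 28.0% of all genes, and Ctrl replicate 2 the lowest for 6 of 7, against 27.1%. As the names were chosen with these values known, nothing is read from these shares. All 7 RNAs had a log2 difference above 0 and 4 had one above 1, against 48.6% and 2.70% of the genes tested. The median over the 7 was 1.39, against -0.01 over all genes, and the middle 90% of genes lay between -0.64 and 0.77. The 7 RNAs together took 0.0908% and 0.0551% of the counts in Olfm4CKO, against 0.0472% and 0.0223% in Ctrl.

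None of the 7 passed the threshold of 0.05 in edgeR's quasi-likelihood test with Benjamini-Hochberg adjustment, and neither did any of the 13573 genes (0.0%). At an unadjusted p under 0.05, 4 of the 7 were past the threshold, as were 287 genes (2.11%). DESeq2 called 1 gene and limma-voom 0, none of them among the 7. The biological coefficient of variation was 32.6%, and the median 95% interval of a gene reached 0.89 to either side on the log2 scale. The result hung on single libraries. Without Ctrl replicate 1, the library with Y-linked counts, the log2 difference was 3.01 for Malat1 (edgeR adjusted p = 0.00856) and 3.51 for Snhg11 (edgeR adjusted p = 0.0132), and these 2 were among 25 of 14271 genes called (0.175%). The single Ctrl library left in that fit was the low one, and it was assumed to vary like the others. Without that low library, Ctrl replicate 2, the differences were 0.86 for Malat1 and 1.01 for Snhg11, and none of the 7 was called. Over the 4 ways of leaving out 1 library, Meg3 stayed between 1.10 and 1.69, Neat1 between 0.35 and 0.94, Rian between 0.37 and 1.04 and Kcnq1ot1 between 0.99 and 3.62.

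**Figure D2:**
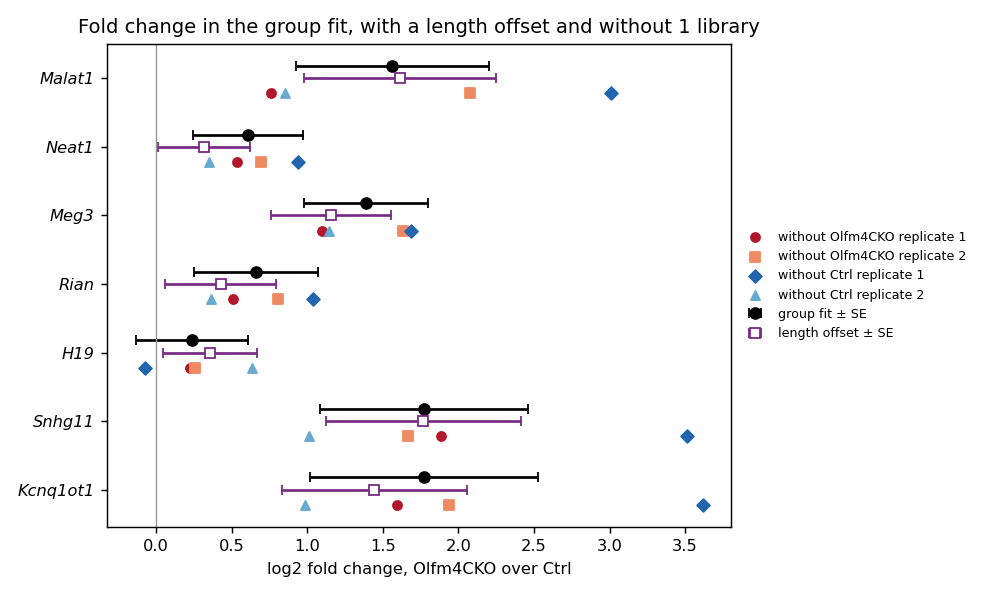
Log2 difference of each RNA, Olfm4CKO minus Ctrl, from edgeR with its SE (black), with a length offset and its SE (open squares), and with 1 library left out (coloured points). Values without Ctrl replicate 1 lie farthest right for every RNA except H19, where that value is -0.069.

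Promoters are shown for the 4 RNAs whose log2 difference was above 1, so that their starts can be compared. Each window runs from 250 bases before to 50 bases after the start annotated by RefSeq (GRCm38.p6), and lies at chr19:5802623-5802922 on the minus strand for Malat1, chr12:109540746-109541045 on the plus strand for Meg3, chr7:143296498-143296797 on the minus strand for Kcnq1ot1 and chr2:158375463-158375762 on the plus strand for Snhg11. Capitals mark TGACGTCA (the cAMP response element), its shorter part TGACG, which overlaps it, CCAAT and TATAAA, each searched on both strands.
Malat1: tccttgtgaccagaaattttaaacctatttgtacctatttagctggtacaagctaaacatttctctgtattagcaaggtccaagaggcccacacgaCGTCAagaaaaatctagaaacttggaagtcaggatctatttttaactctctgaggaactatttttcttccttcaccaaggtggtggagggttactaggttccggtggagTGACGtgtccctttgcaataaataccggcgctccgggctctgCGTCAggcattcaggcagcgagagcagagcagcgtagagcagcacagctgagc
Meg3: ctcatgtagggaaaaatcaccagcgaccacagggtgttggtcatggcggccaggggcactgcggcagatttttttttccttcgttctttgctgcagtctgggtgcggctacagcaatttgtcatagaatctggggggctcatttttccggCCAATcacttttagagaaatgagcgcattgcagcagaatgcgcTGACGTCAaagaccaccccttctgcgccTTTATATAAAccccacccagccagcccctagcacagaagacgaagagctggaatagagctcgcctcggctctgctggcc
Kcnq1ot1: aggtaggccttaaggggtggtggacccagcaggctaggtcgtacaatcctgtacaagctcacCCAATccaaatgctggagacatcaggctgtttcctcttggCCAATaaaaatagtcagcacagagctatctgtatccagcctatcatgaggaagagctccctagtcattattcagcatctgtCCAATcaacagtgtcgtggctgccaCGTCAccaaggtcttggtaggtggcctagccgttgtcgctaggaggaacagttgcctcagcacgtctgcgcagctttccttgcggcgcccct
Snhg11: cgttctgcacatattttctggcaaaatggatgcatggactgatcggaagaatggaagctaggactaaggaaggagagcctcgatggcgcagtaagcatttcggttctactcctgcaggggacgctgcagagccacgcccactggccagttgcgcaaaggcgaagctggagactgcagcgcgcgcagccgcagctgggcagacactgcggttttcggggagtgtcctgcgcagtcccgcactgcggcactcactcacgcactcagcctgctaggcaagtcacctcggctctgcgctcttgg
The 4 windows held different motifs. Malat1 held TGACG at 3 places, the nearest of them over the annotated start. Meg3 held the full TGACGTCA, which 1.79% of 32851 RefSeq promoter windows also hold, with a CCAAT box upstream of it and TATAAA on both strands downstream. Kcnq1ot1 held CCAAT at 3 places and TGACG at 1. Snhg11 held none of these letters. Across all windows the shares were 20.8% for TGACG, 37.4% for CCAAT and 13.6% for TATAAA, so these motifs are common, and a match describes the letters only. G and C made up 47.0% of the window of Malat1, 53.7% of Meg3, 53.3% of Kcnq1ot1 and 60.0% of Snhg11.

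Per kilobase of merged exons (GENCODE vM21, GRCm38), the order of the mean levels was the same as by CPM, while the gaps were not. Malat1, at chr19:5795690-5802672 and 6.983 kb long, stood first at 77.0 and 30.3 CPM per kb in Olfm4CKO and 29.7 and 6.65 in Ctrl. Neat1, at chr19:5824708-5845478 and 20.771 kb, followed with 14.9 and 13.1 CPM per kb in Olfm4CKO and 11.1 and 7.31 in Ctrl. That is the length of its longest annotated transcript. The median annotated transcript is 2017 bases for Neat1 and 606 bases for Malat1. Levels per kb of shorter forms were not computed, so the order of Malat1 and Neat1 is given for this length only. H19, a short RNA of 2.46 kb at chr7:142575529-142578143, had 7.01 and 6.75 CPM per kb in Olfm4CKO and 4.45 and 7.21 in Ctrl. The range of Malat1 over the 4 libraries took in that of Neat1 and reached into that of H19. Within libraries, Malat1 was above both per kb except in Ctrl replicate 2. There its 6.65 lay below the 7.31 of Neat1 and the 7.21 of H19. Every library had more Neat1 than H19 per kb at these lengths. Meg3 (chr12:109541001-109571726, 18.089 kb), Rian (chr12:109603940-109661716, 18.234 kb) and Snhg11 (chr2:158375638-158386145, 8.521 kb) followed with means of 0.643, 0.590 and 0.571 CPM per kb, and their ranges overlapped. The order of these 3 depends on the length used: with the longest transcript, Rian had means of 1.63 in Olfm4CKO and 1.03 in Ctrl, Snhg11 had 1.28 in Olfm4CKO and 0.376 in Ctrl, and Meg3 had 1.16 in Olfm4CKO and 0.442 in Ctrl. Kcnq1ot1, a single exon of 93.092 kb at chr7:143203458-143296549, was last at 0.0541 and 0.0417 CPM per kb in Olfm4CKO and 0.0242 and 0.00382 in Ctrl. Among the 597 long noncoding RNAs tested, Malat1 ranked 1 and Neat1 ranked 2 by mean CPM, H19 ranked 23, Meg3 37, Rian 39, Snhg11 102 and Kcnq1ot1 164.

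The level of a gene depended on its transcript length in a way that differed between libraries. Across 12272 protein-coding genes, log2 CPM, centred on the gene's mean over the 4 libraries, changed per doubling of length by -0.0852 in Olfm4CKO replicate 1 and 0.169 in Olfm4CKO replicate 2, against 0.103 in Ctrl replicate 1 and -0.186 in Ctrl replicate 2. Long transcripts were thus high in 1 library of each group and low in the other. Olfm4CKO minus Ctrl was 0.0838, less than the spread within groups (pooled SD 0.193). The slope of Ctrl replicate 2 was the steepest. For the 709 genes of at least 12 kb, the median centred log2 CPM was -0.04 and 0.32 in Olfm4CKO, against 0.21 and -0.49 in Ctrl replicates 1 and 2. In that length class 19.6% of genes had both Olfm4CKO libraries above both Ctrl libraries, against 4.80% of the 1272 genes between 1 and 2 kb.

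**Figure D3:**
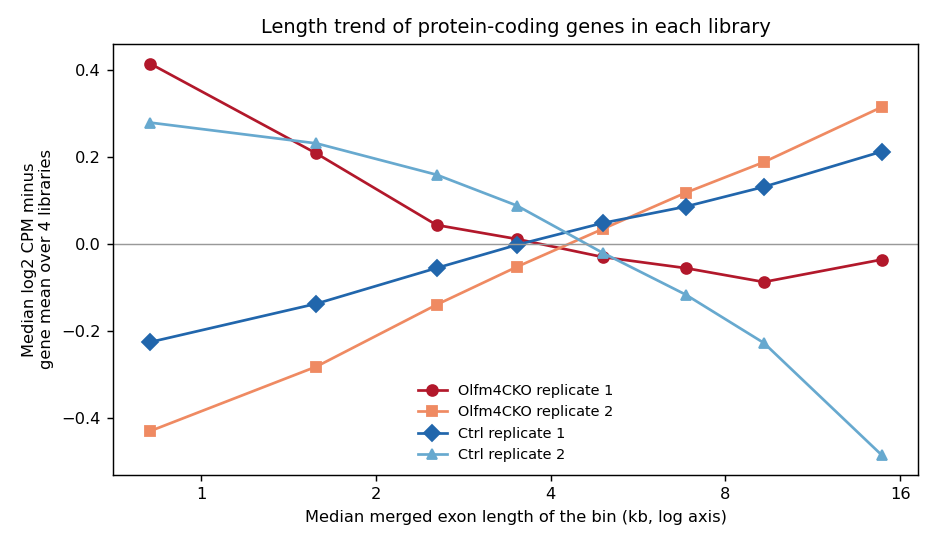
Median centred log2 CPM of genes binned by merged exon length in kb (log axis), 1 line per library, for protein-coding genes. The lines of Olfm4CKO replicate 2 and Ctrl replicate 1 climb with length and that of Ctrl replicate 2 falls, reaching -0.49 for genes of at least 12 kb.

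Each library's trend was read off at the length of each RNA, and the rest of the RNA's level was compared. Observed differences here are between group means of log2 CPM. In edgeR without a length offset they were 1.56 for Malat1 and 1.77 for Snhg11 and Kcnq1ot1. The trend alone, Olfm4CKO minus Ctrl, came to 0.34 of the 0.64 observed for Neat1, 0.30 of 0.69 for Rian, 0.30 of 1.38 for Meg3 and 0.76 of 2.24 for Kcnq1ot1. It was 0.06 of 1.78 for Malat1, 0.09 of 2.23 for Snhg11 and -0.10 against 0.28 for H19. For Neat1 and Rian the trend value was thus a large part of the difference, and what remained, 0.29 and 0.39, overlapped between groups. This rests on the length used: with the median transcript length the remainder was 0.64 for Neat1 and 0.72 for Rian, and with the longest transcript 0.067 and 0.47. The remainder of Neat1 was 0.44 and -0.14 in Olfm4CKO, against -0.26 and -0.02 in Ctrl. Malat1 kept 1.72, but its remainders of 1.62 and 0.0955 in Olfm4CKO met 0.0983 and -1.83 in Ctrl, with Ctrl replicate 1 just above Olfm4CKO replicate 2. In all, 4 RNAs had both Olfm4CKO remainders above both Ctrl ones: Meg3, H19, Snhg11 and Kcnq1ot1, against 13% of the genes in the trend. For H19 the margin was thin, with 0.107 and 0.258 in Olfm4CKO and -0.430 and 0.0448 in Ctrl. Snhg11 had 1.10 and 1.04 in Olfm4CKO and 0.00 and -2.15 in Ctrl. Only 2 genes in the trend are as long as Kcnq1ot1, so its trend value is poorly set. With the trend as an offset in edgeR, the log2 differences were 1.61 for Malat1, 0.32 for Neat1, 1.16 for Meg3, 0.43 for Rian, 0.36 for H19, 1.77 for Snhg11 and 1.45 for Kcnq1ot1, and none was called.

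**Figure D4:**
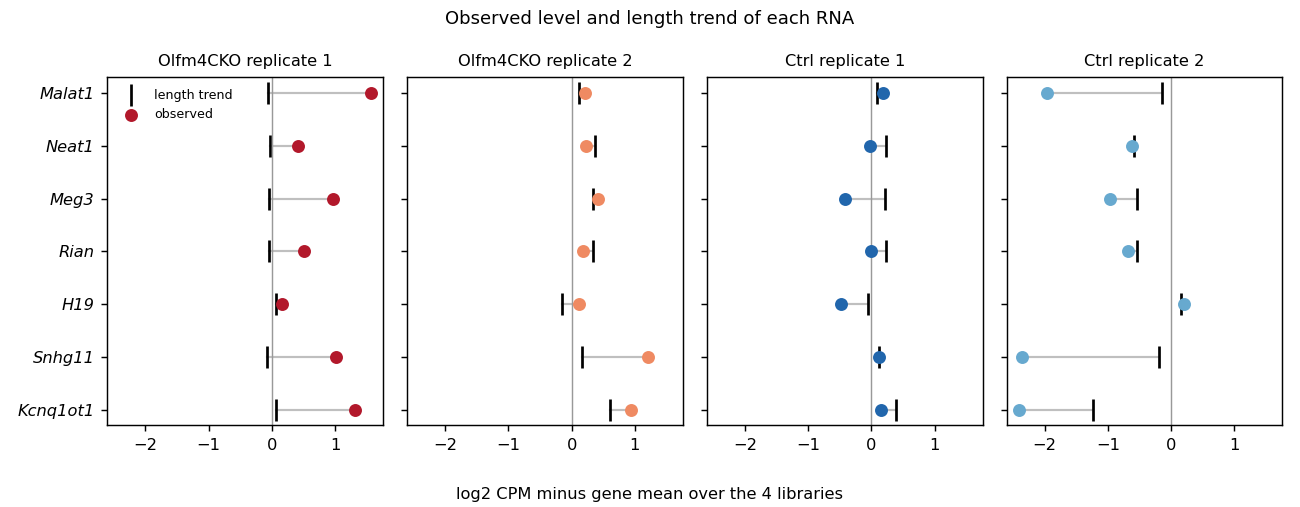
Centred log2 CPM of each RNA (points) and the value of that library's length trend at its length (ticks), in 1 panel per library with Olfm4CKO before Ctrl. Points of Malat1, Snhg11 and Kcnq1ot1 lie far below their ticks in Ctrl replicate 2, where Neat1 lies on its tick.

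The proteins that work with Malat1 and Neat1 were examined next. Of 30 nuclear speckle and splicing factors, 29 had a log2 difference above 0, with a median of 0.40 (0.37 with the length offset), against -0.01 over all genes, and 0 were called. Leaving out Olfm4CKO replicate 1 gave a median of 0.17, and leaving out Ctrl replicate 1 gave 0.62. In 13 of the 30 both Olfm4CKO libraries were above both Ctrl libraries, against 11.8% of all genes. Srrm2, a scaffold of speckles, had 200 and 218 CPM in Olfm4CKO, against 148 and 97.5 CPM in Ctrl. Ddx5, an RNA helicase, had 449 and 361 CPM in Olfm4CKO and 391 and 355 CPM in Ctrl, and its libraries overlapped. Those of Rsrp1, an arginine and serine rich protein, overlapped as well, at 289.7 and 254 CPM in Olfm4CKO and 177 and 339.6 CPM in Ctrl (log2 difference 0.07). Of 30 paraspeckle proteins, 22 were above 0 with a median of 0.14. In 5 both Olfm4CKO libraries were above both Ctrl libraries and in 1 below, against 11.8% and 12.8% of all genes. The paraspeckle median was -0.06 without Ctrl replicate 2 and 0.31 without Ctrl replicate 1. Sfpq, an essential paraspeckle protein that binds Neat1, had 191 and 125 CPM in Olfm4CKO and 165 and 77.4 CPM in Ctrl, with overlap. Hnrnph1, a splicing regulator, had 163 and 104 CPM in Olfm4CKO, against 93.4 and 68.2 CPM in Ctrl. Hnrnpk, the highest of the list, had 226 and 234 CPM in Olfm4CKO and 239 and 216 CPM in Ctrl, with overlap (log2 difference 0.01). The 10 genes of RNase P and RNase Z, the enzymes that cut the end of Malat1, had a median of -0.15, with 3 above 0 and 7 below, but 0.14 without Olfm4CKO replicate 2 and 0.06 without Ctrl replicate 2. Their 3 highest genes, Elac2, Pop5 and Rpp14, had log2 differences of -0.32, -0.17 and -0.15, each with overlap.

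The lists of other noncoding and imprinted genes described here had medians between -0.03 and 0.34, and 0 of their genes were called. Airn, Peg13 and Snhg14 are each counted in 2 of these lists. Of 17 other small nucleolar RNA host genes, 10 were above 0 and 7 below, with a median of 0.13 that turned to -0.24 without Olfm4CKO replicate 1 and -0.10 without Ctrl replicate 1. Gas5, one such host, had 28.7 and 12.97 CPM in Olfm4CKO and 15.7 and 14.6 CPM in Ctrl. The other 2 of the highest hosts, Snhg6 and Zfas1, had log2 differences of 0.03 and -0.43. Of 15 other long noncoding RNAs, Xist among them, 10 were above 0, with a median of 0.34 that was -0.27 without Olfm4CKO replicate 1. Tug1, a nuclear RNA, had 61.3 and 46.9 CPM in Olfm4CKO and 55.3 and 30.5 CPM in Ctrl, with overlap. Peg13, an imprinted noncoding RNA, overlapped too, with a log2 difference of -0.10. Of 32 other imprinted genes, 22 were above 0, with a median of 0.22 (0.18 without Ctrl replicate 2 and 0.41 without Ctrl replicate 1). Of these 32, 9 had both Olfm4CKO libraries above both Ctrl libraries and 2 below, against 11.8% and 12.8% of all genes. Gnas, the most abundant of them, which encodes the alpha subunit of the stimulatory G protein, had 6659 and 4083 CPM in Olfm4CKO and 5578 and 5599 CPM in Ctrl. Dcn, which encodes the matrix protein decorin, ran the other way, with 84.6 and 112 CPM in Olfm4CKO, against 128 and 149.9 CPM in Ctrl, and H13 had a log2 difference of -0.07. The 8 genes of the Kcnq1 domain split 4 and 4, with a median of -0.03 (-0.21 without Olfm4CKO replicate 1 and 0.27 without Olfm4CKO replicate 2). Its highest genes besides Cdkn1c, Cd81 and Nap1l4, had log2 differences of 0.04 and -0.14. Over the 590 other long noncoding RNAs tested, the median was 0.07, and 17.6% had both Olfm4CKO libraries above, against 11.5% of protein-coding genes.

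**Figure D5:**
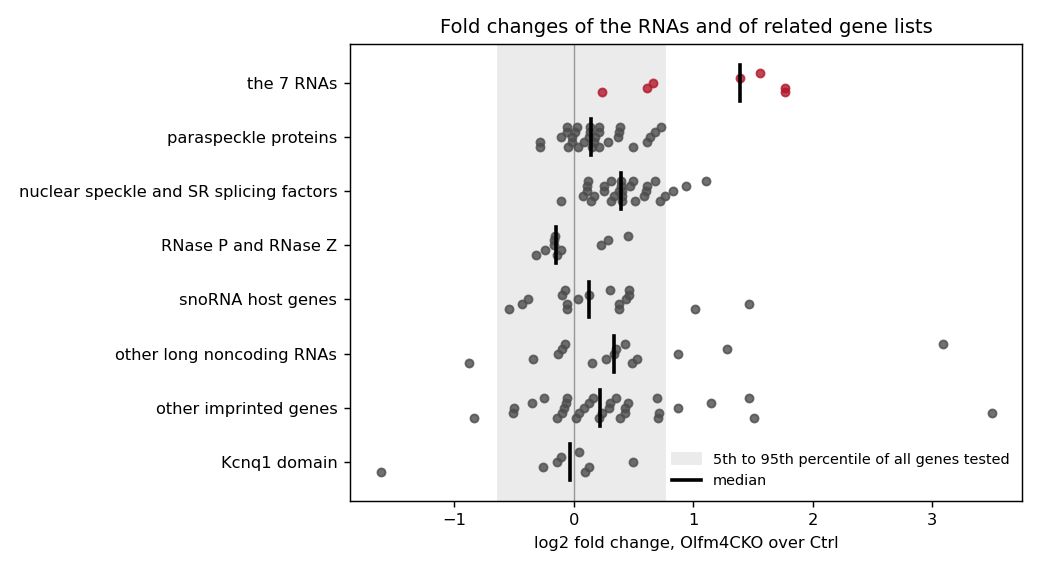
Log2 difference, Olfm4CKO minus Ctrl, of each tested gene of the lists examined, with the list median as a bar and the range between the 5th and 95th percentiles of all genes in grey. The nuclear speckle and splicing factor list has 29 of 30 genes above 0, and the RNase P and RNase Z list has 7 of 10 below 0.

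Markers of other cell types differed between the libraries too. In bulk tissue, fewer cells of a type and less RNA per cell cannot be told apart. All 10 endothelial markers were above 0 (median 0.50), with a summed level of 2033 and 1813 CPM in Olfm4CKO, against 1534 and 1157 CPM in Ctrl. All 10 skeletal muscle markers were above 0 (median 1.45), and their summed level of 199 and 20.8 CPM in Olfm4CKO and 70.5 and 12.9 CPM in Ctrl was higher in replicate 1 of each group. Of 10 Schwann cell markers 9 were below 0, with 218 and 172 CPM in Olfm4CKO, against 304 and 527 CPM in Ctrl. Of 12 progenitor and stroma markers 10 were below 0, with 871 and 1622 CPM in Olfm4CKO and 1314 and 1691 CPM in Ctrl. Immune markers set Ctrl replicate 2 apart. Of 10 macrophage markers 9 were below 0, with 198 and 265 CPM in Olfm4CKO and 188 and 459 CPM in Ctrl. All 10 T and B lymphocyte markers were below 0, with 12.7 and 15.6 CPM in Olfm4CKO and 6.20 and 45.2 CPM in Ctrl. The part of these shifts in the levels of the 7 RNAs was not tested.

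The genes whose levels over the 4 libraries were most like each RNA were found by the root mean square difference of centred log2 CPM. The pool was 8101 genes with a mean of at least 10 CPM, with predicted genes (Gm numbers and Rik names) left out. Snhg11 and Kcnq1ot1 lie below that floor themselves, so genes of their own level were not compared. Neat1 and Rian had near neighbours, Ap4e1 at 0.0387 for Neat1 and Etl4 at 0.0425 for Rian, and were also the closest pair among the 7 at 0.0628. Myadm and Fam126a were among the 3 nearest genes of both. Snhg11 and Kcnq1ot1 were the next pair, at 0.201. Malat1, Snhg11 and Kcnq1ot1 had no close match in this pool. The nearest gene for each was Kmt2d, a long gene for a histone methyltransferase, at 0.406, 0.577 and 0.544, and Kmt2d had 126 and 89.0 CPM in Olfm4CKO and 87.5 and 22.6 CPM in Ctrl. For Meg3 the nearest were Msantd2 (0.0518) and Tbx3, a developmental transcription factor (0.128). H19 was nearest to Dedd2 (0.0378). Over only 4 libraries such likeness is a description.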

How the data were processed

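Per the labels' protocols, messenger RNA libraries were made from column-extracted total RNA. The submitters' processing notes name the build mm10 and the tools cutadapt 1.11 (trimming), HISAT2 2.1.0 (alignment) and featureCounts 1.6.0 (counting). Which annotation and strand setting were used is not given in the sources used here. Although its name says FPKM, the deposited table holds whole numbers with unequal column totals, and its values were used as read counts per gene. Of 35978 rows, 35975 have counts for replicates 1 and 2. The replicate 3 columns hold 12470249 (Olfm4CKO) and 12108535 (Ctrl) counts in 24276 rows, and correlated with replicates 1 and 2 at a Spearman rho of -0.0209 to -0.0156, against 0.94 to 0.9474 among those 4 libraries, so no gene was read from them.

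All 13573 genes that passed filterByExpr (minimum count 10, minimum total 15) were fitted in edgeR 4.0.16 under R 4.3.3 with TMM scaling, the quasi-likelihood test on group and Benjamini-Hochberg adjustment at 0.05. All 7 RNAs passed this filter. Normalised CPM are given as mean ± SD. No library was a duplicate of another: within groups, chi-square over genes was 142.9 (Olfm4CKO) and 92.6 (Ctrl) times its degrees of freedom. The smallest two-sided p of an exact permutation of 2 against 2 libraries is 0.333, so no such test is given. Counting intervals are exact, at 95%, and cover counting error only.

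Length is the union of exons in GENCODE vM21, held for 26679 rows. The trend of centred log2 CPM (prior count 0.5) on log2 length was a lowess curve of span 0.3 for each library, with the 7 RNAs left out. Promoters are RefSeq's, with entries for Malat1, Meg3, Rian, Snhg11 and Kcnq1ot1; H19 and Neat1 are named only. Other genes were named from the neighbours of the 7 RNAs in the genome or cluster and the 3 highest genes of each list. The 3 genes most like each RNA were a further source. Xist, Y-linked genes and neuronal markers were named after their values were seen. The members, lists and rules were chosen with earlier results of these data known. Alternatives were RLE, upper quartile and total-count scaling, 2 other filters, DESeq2 1.42.0, limma-voom (limma 3.58.1), the length offset, other lengths and gene sets for the trend, each library left out and the replicate number as a block. The main fit was also run on simulated counts with known changes. This checked the code and was not used to judge power for differences of the size seen here.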

Additional observations from a re-analysis of the deposited data

How the results depend on the processing

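The 7 log2 differences kept their sign under all scalings, filters, tools and offsets tried, and under every left-out library except for H19, which was -0.069 without Ctrl replicate 1. Without that library Malat1 (3.01) and Snhg11 (3.51) passed the threshold. With 1 library left out, the differences lay between 0.76 and 3.01 for Malat1, 1.01 and 3.51 for Snhg11, and -0.069 and 0.63 for H19. The number of genes called was 0, but 1 with DESeq2 and 6 to 27 with 1 library left out; among the genes of the lists it was 0 to 1, the 1 being Xist without Olfm4CKO replicate 1 or without Ctrl replicate 2. The remainder of Neat1 after the length trend, 0.29, was 0.64 with median and 0.067 with longest transcript length. With the longest transcript, the level of Rian was 1.63 CPM per kb in Olfm4CKO and 1.03 in Ctrl, that of H19 was 7.40 and that of Snhg11 1.28 in Olfm4CKO, and Rian stood above Meg3. Of 98 alternative list medians, 11 turned sign. The cause of these changes was not tested beyond the construction of each alternative.

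Across genes, deviations from the group mean in Olfm4CKO replicate 1 and Ctrl replicate 1 had a correlation of 0.021. With 2 libraries per group, replicate 2 mirrors replicate 1. This is therefore a single value and cannot exclude that the replicate numbers pair the libraries. With the replicate number as a block, 4 genes were called, 2 with the length offset as well, and 1 gene of the lists, Xist. None of the 7 RNAs was among them, and the blocked difference was 1.78 for Malat1, 2.12 for Snhg11 and 1.39 for Meg3. With the block and the length offset, Malat1 had a difference of 1.72 (edgeR quasi-likelihood adjusted p = 0.0615). Snhg11 with 11 counts and Kcnq1ot1 with 6 counts in Ctrl replicate 2 are limited by depth.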
